A study of Mus musculus with 10 samples.

Results

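The tetraspanin genes Cd9, Cd81, Cd82, Cd37, Cd53 and Cd151 were followed in microglia sorted as CD45low CD11b+ cells from the mouse hippocampus. They were chosen by symbol as tetraspanins of the myeloid cell surface other than Cd63, and are 6 of the 19782 genes in the deposited table. There were 10 libraries in 3 groups. Of these, 4 came from wild-type animals that ate a normal diet. Another 3, called control here, came from mice of the 5xFAD genotype on the same diet; 5xFAD mice express mutant human amyloid precursor protein and presenilin under a neuronal promoter. The other 3 libraries, called repopulated, came from 5xFAD mice fed PLX3397, an inhibitor of the CSF1 receptor, at 290 mg/kg of chow for 1 month from 4 months of age and then a normal diet for 1 month, during which microglia returned. The labels give no age for the other groups. Repopulated cells were studied within 5xFAD mice only, so in repopulated against wild type the genotype and the treatment cannot be told apart.

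Tetraspanins are small proteins that cross the membrane repeatedly and carry a large extracellular loop with a conserved cysteine-cysteine-glycine motif. They bind integrins, immunoglobulin-family proteins and each other, and gather them into membrane microdomains that act in adhesion, migration, fusion and the budding of extracellular vesicles. Cd9 and Cd81 are close relatives found on many cell types, Cd37 and Cd53 are largely restricted to leukocytes, Cd82 is known as a restraint on cell migration, and Cd151 is the partner of laminin-binding integrins in epithelium and endothelium. In brain myeloid cells Cd9 is widely used as a marker of plaque-associated microglia. Only RNA was measured here, not protein at the surface.

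The coding stretch around the loop motif is shown for each gene because it is the feature that the members share and also shows how little of their sequence is common. Capitals mark the 3 codons of the motif, found in frame as TGCTGCGG, TGCTGTGG, TGTTGCGG or TGTTGTGG with any last base. Each stretch is read 5′ to 3′ from the longest complete coding sequence in GENCODE M21 on GRCm38, and the gene coordinates that follow are RefSeq on GRCm38.p6.
Cd9: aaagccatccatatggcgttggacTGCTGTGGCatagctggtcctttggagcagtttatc
Cd81: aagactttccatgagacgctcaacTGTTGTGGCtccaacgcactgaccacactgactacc
Cd82: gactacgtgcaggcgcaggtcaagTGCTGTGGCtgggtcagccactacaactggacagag
Cd37: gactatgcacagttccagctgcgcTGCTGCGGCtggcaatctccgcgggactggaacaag
Cd53: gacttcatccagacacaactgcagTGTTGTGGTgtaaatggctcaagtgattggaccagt
Cd151: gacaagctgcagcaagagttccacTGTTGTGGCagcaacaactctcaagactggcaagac

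Cd9 and Cd81 each held 1 further in-frame match, outside the stretch shown. The coding sequences ran from 219 codons (Cd53) to 303 codons (Cd37), stop codon left out. No stretch of 31 bases was shared between the transcripts of any pair of members (maximum shared 0), so their reads could be told apart. Cd9 (Entrez 12527) lies on chromosome 6 from 125460266 to 125494760 and Cd82 (Entrez 12521) on chromosome 2 from 93419102 to 93462950. Cd53 (Entrez 12508) lies on chromosome 3 from 106758861 to 106790149. On chromosome 7 lie Cd81 (Entrez 12520, 143052750 to 143067930), Cd37 (Entrez 12493, 45233632 to 45239340) and Cd151 (Entrez 12476, 141467362 to 141471481). All except Cd53 overlap an annotated gene on the other strand, and the sources used here do not state that counting used strand. Of those neighbours Tead2, beside Cd37, was measured, at 0.202 to 1.02 CPM.

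Library totals were 18501136 to 23286814 estimated counts; 12505 genes, all 6 members among them, passed the expression filter. Microglial markers summed to 38800 to 52100 CPM (counts scaled to library size). Control 2 stood apart from control 1 and 3: the chi-square per degree of freedom between its counts and theirs was 74.5 and 103, against 16.2 between control 1 and 3. Its 8 neutrophil markers summed to 337 CPM, against 19.3 and 25.8 CPM in control 1 and 3. Wild-type 3 held the most neuronal (68.3 CPM, 11.6 to 13.3 in the other wild-type libraries) and astrocyte (557 CPM, 223 to 315) marker transcripts. In wild-type 2, control 1 and control 3 the transcripts of 4 Y-linked genes were almost missing. No repopulated library was among these, so Y-linked status ran partly with group. The same libraries had the lowest neutrophil marker sums. A term for Y-linked transcript status was fitted as an alternative. The part of the other differences in the results was not tested, and values without the libraries are given where they move a result. Whether each library stands for its own animal is not stated in the labels. The p-values therefore set group differences against the scatter among these samples, which may be technical, and may not reach beyond them.

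Measured per length as deposited TPM (transcript abundance scaled to a fixed total per library), the 6 genes kept the order Cd81, Cd9, Cd53, Cd37, Cd82, Cd151 from highest to lowest in every library except control 2, where Cd9 exceeded Cd81. Cd81 was among the most abundant transcripts of these cells, ranking between 8 and 23 of all genes over the libraries. Cd9 ranked between 18 and 40 and Cd53 between 44 and 81, whereas Cd151 ranked between 5985 and 7691. In wild-type microglia the TPM levels were 8360 ± 417 for Cd81, 2554 ± 215 for Cd9, 1641 ± 190 for Cd53, 497 ± 104 for Cd37, 136 ± 32.5 for Cd82 and 10.3 ± 2.64 for Cd151 (SD, n = 4). No neighbours in this order overlapped there. In control microglia Cd81 (5861 ± 1460 TPM) and Cd9 (5352 ± 669 TPM) no longer differed beyond their spread (SD, n = 3). In repopulated microglia Cd81 was again clearly ahead, at 7357 ± 79.8 against 4849 ± 162 TPM (SD, n = 3).

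The pool of the 6 transcripts held a larger share of Cd9 and a smaller share of Cd81 in 5xFAD than in wild-type microglia. The summed TPM was 13200 ± 457 in wild-type, 13360 ± 2020 in control and 14130 ± 348 in repopulated libraries (SD, n = 4, 3 and 3), with control 2 the lowest at 11091. Cd9 made up 17.9 to 20.6% of that sum in wild-type, 39.4 to 41.5% in control and 33.9 to 34.8% in repopulated libraries. Cd81 made up 61.1 to 65%, 38 to 46.7% and 51.2 to 52.7% in the same order. Neither set of shares overlapped between any of the groups. The ratio of Cd81 to Cd9 TPM was 3.29 ± 0.243 in wild-type, 1.08 ± 0.146 in control and 1.52 ± 0.0389 in repopulated libraries. These shares are a description with no test, and as parts of 1 sum they cannot move independently.

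**Figure D1:**
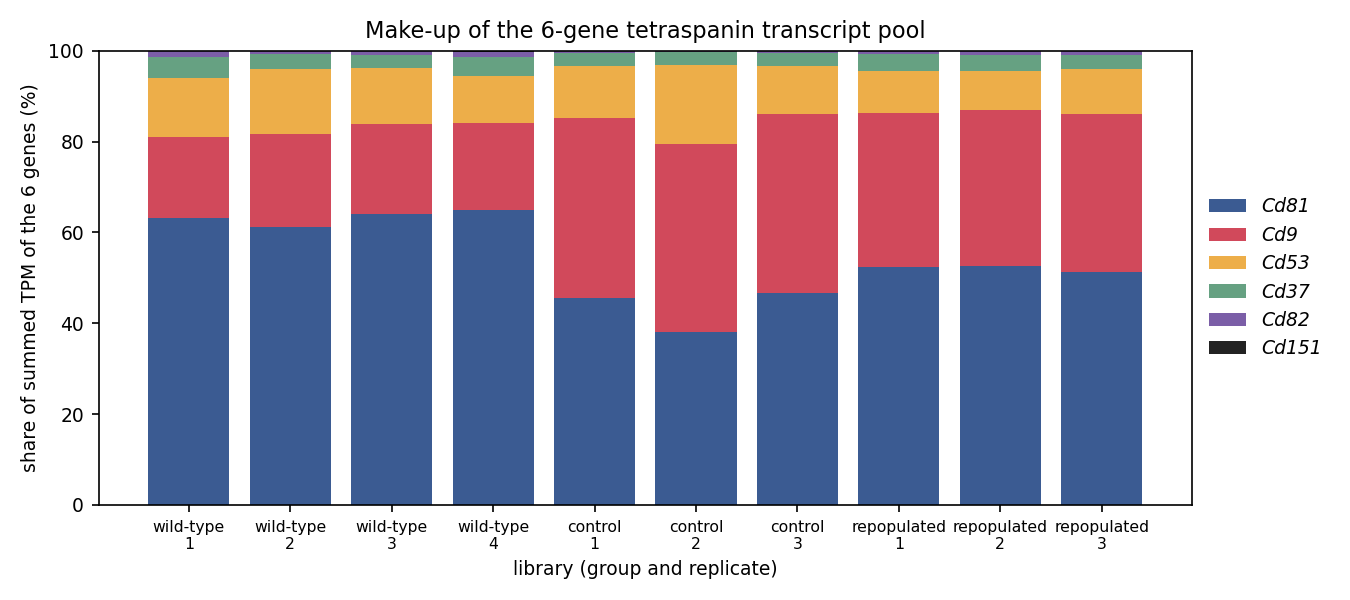
Share of each gene in the summed TPM of the 6 tetraspanin genes (y axis, percent) for each of the 10 libraries (x axis). Cd9 takes 17.9 to 20.6% in the wild-type libraries, 39.4 to 41.5% in the control libraries and 33.9 to 34.8% in the repopulated libraries, and Cd81 takes the largest part in all libraries except control 2.

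The first comparison asked how tetraspanin transcripts differ between control 5xFAD and wild-type microglia. Cd9 rose 2.64-fold and Cd82 fell 1.93-fold, so that these relatives moved in opposite directions. Cd81, Cd37, Cd53 and Cd151 did not pass the test. Of the 6 members 1 rose and 1 fell, where 10.1% and 8.04% of all tested genes did so. Together these are 2 of 6, against 18.1% of all genes. On the CPM scale groups did not overlap for 3 members, Cd9 and Cd53 higher and Cd82 lower, where 26.7% of all genes did not overlap (14.1% higher, 12.6% lower). The members' median log2 fold change was 0.06, against -0.06 over all tested genes. In bulk RNA, fewer cells of a type and less RNA per cell cannot be told apart.

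Cd9, the tetraspanin that pairs with immunoglobulin-family partners and integrins, was at 1119, 1548, 1573 and 1371 CPM in wild-type 1 to 4 and at 3925, 3092 and 4105 CPM in control 1 to 3. Every control library lay above every wild-type library, and control 2 was the lowest of the control libraries. The log2 fold change was 1.40 (SE 0.16, edgeR adjusted p = 2.82e-05, n = 4 and 3). The gene kept its call in every alternative tried, with an edgeR, DESeq2 or limma-voom adjusted p of 9.41e-19 to 0.00691 and a log2 fold change of 1.08 to 1.52.

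Cd82, whose protein restrains migration in other cells, was at 132, 85.2, 110 and 122 CPM in wild-type 1 to 4. In control 1 to 3 it was at 64.1, 30.7 and 79.2 CPM. All control libraries lay below all wild-type libraries, though control 3 and wild-type 2 lay close together, and control 2 was far below the rest. The log2 fold change was -0.95 (SE 0.25, edgeR adjusted p = 0.0161, n = 4 and 3). Without control 2 it was -0.64 with an edgeR adjusted p of 0.0353. Without the 3 libraries near absent in Y-linked transcripts, which leaves control 2 as the only control library and assumes that it varies like the other groups, it was -1.97 (edgeR adjusted p = 0.000943). The call therefore held with and without control 2, but the size of the change rested on that library. Without single libraries the edgeR adjusted p of Cd82 ran from 0.00649 to 0.0492, the latter without wild-type 1 and close to the threshold.

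Cd53, a leukocyte tetraspanin, was at 2151, 2861, 2631 and 2020 CPM in wild-type 1 to 4 and at 3087, 3443 and 2956 CPM in control 1 to 3. The groups did not overlap, and the log2 fold change was 0.39 (SE 0.16, edgeR adjusted p = 0.111, n = 4 and 3). By DESeq2 the adjusted p was 0.0432. With the correction for GC content and transcript length the log2 fold change was 0.09. On the deposited TPM scale the groups overlapped, at 1418 to 1882 in wild-type and 1579 to 1917 in control libraries.

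Cd81, the most abundant member and a close relative of Cd9, was at 5265, 6144, 6819 and 6255 CPM in wild-type 1 to 4. In control 1 to 3 it was at 6032, 3776 and 6496 CPM. Control 1 and 3 lay within the wild-type range and control 2 well under it. The log2 fold change was -0.17 (SE 0.18, edgeR adjusted p = 0.55, n = 4 and 3), with a 95% interval of the control to wild-type ratio of 0.678 to 1.16. Without control 2 it was 0.04. The scale matters here: in TPM every control library (4212 to 6973) lay under every wild-type library (7913 to 8823). The scaling factors by which CPM differ from unscaled totals were 0.913 to 0.917 in control and 1.02 to 1.12 in wild-type libraries.

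Cd37, the other leukocyte tetraspanin, was at 334, 285, 249 and 348.5 CPM in wild-type 1 to 4 and at 302, 233 and 321 CPM in control 1 to 3. The groups overlapped, with a 95% interval of the ratio of 0.754 to 1.17 (edgeR adjusted p = 0.709, n = 4 and 3). Cd151 was at 6.42, 9.93, 7.10 and 10.8 CPM in wild-type 1 to 4 and at 9.66, 11.1 and 9.15 CPM in control 1 to 3, on 133 to 241 estimated counts a library over all groups. The interval of its ratio was 0.823 to 1.64 (edgeR adjusted p = 0.555, n = 4 and 3). No ratio within that interval can be set aside for this low gene.

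**Figure D2:**
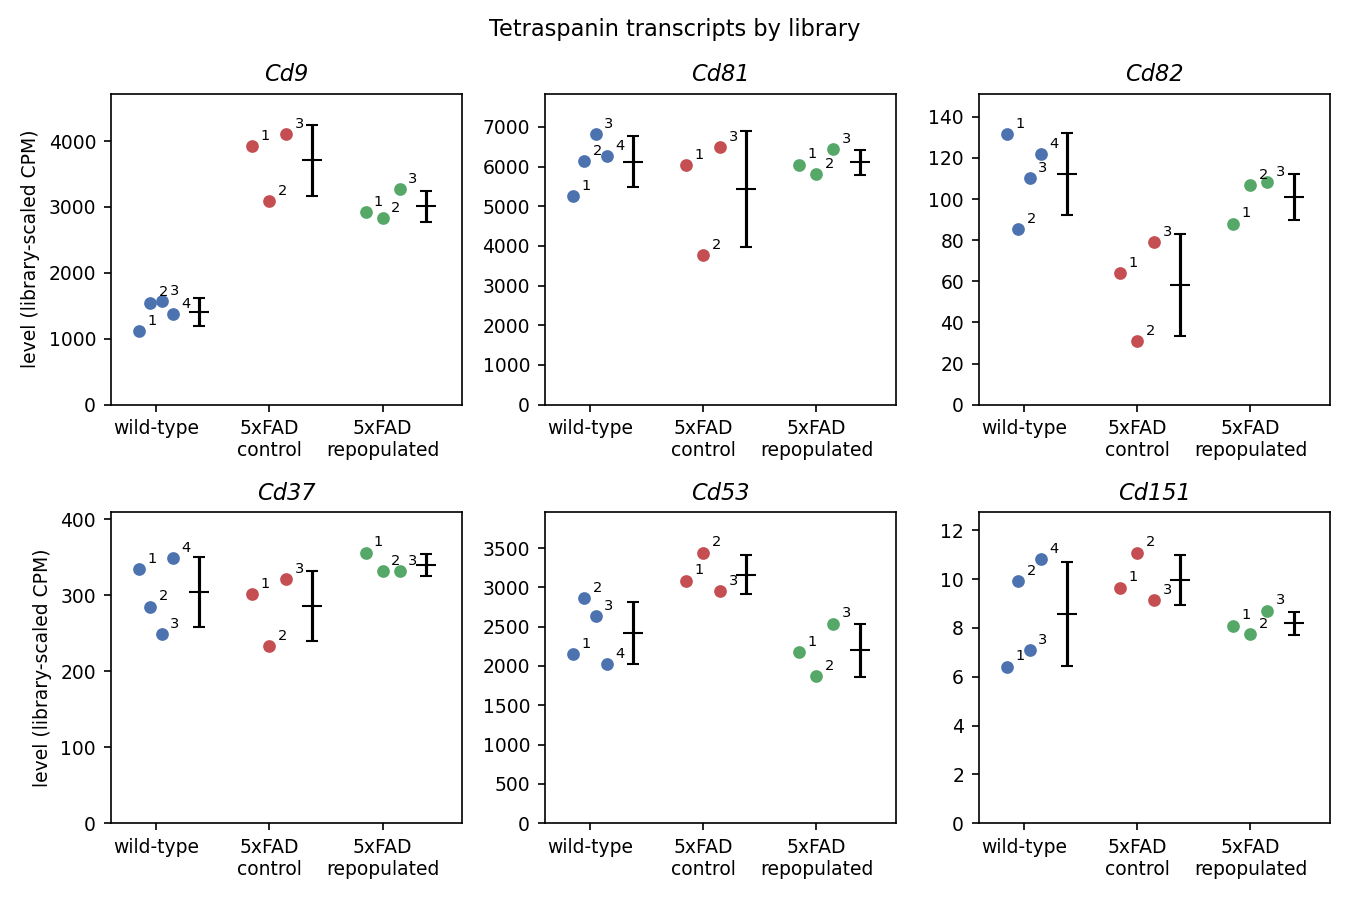
Level of each of the 6 genes in library-scaled CPM (y axes, linear from 0) in the wild-type, 5xFAD control and 5xFAD repopulated libraries, with replicate numbers beside the points and the mean ± SD as a bar beside each group. For Cd9 all 6 5xFAD libraries lie above the 4 wild-type libraries; for Cd82 the 3 control libraries lie below the other 7; control 2 is the lowest library for Cd81, Cd82 and Cd37.

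The second comparison stayed within the 5xFAD genotype and set repopulated microglia against control microglia. None of the 6 tetraspanins passed edgeR's test after adjustment, where 0.568% of all tested genes did (0.352% higher, 0.216% lower). At an unadjusted p under 0.05 there were 2, Cd82 and Cd53, and the share of all genes at that cut is not given here. DESeq2 called those 2 members, among 698 genes in all. By limma-voom 0 members were called, among 125 genes in all, where edgeR called 71 genes. On the CPM scale groups did not overlap for 4 members, Cd82 and Cd37 higher and Cd53 and Cd151 lower. This held for 30.7% of all tested genes, 15% higher and 15.7% lower. In deposited TPM the members differ: Cd81 did not overlap, at 7266 to 7418 in repopulated and 4212 to 6973 in control libraries, whereas Cd151 did, at 8.56 to 8.82 and 8.68 to 11.1. The members' median log2 fold change was -0.06, against 0 over all genes.

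Cd82 was at 88.1, 107 and 108 CPM in repopulated 1 to 3, above all control libraries and within the wild-type range for each. Its log2 fold change against control was 0.80 (SE 0.26, edgeR adjusted p = 0.139, DESeq2 adjusted p = 0.0384, n = 3 and 3). Without control 2 it was 0.50 (edgeR adjusted p = 0.367), and where control 2 stood alone for its group it was 1.72 (edgeR adjusted p = 0.0118). Against wild type the repopulated to wild-type ratio was 0.902, with a 95% interval of 0.63 to 1.29. The comparisons share libraries, so these values are not independent of each other.

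Cd53 was at 2181, 1875 and 2539 CPM in repopulated 1 to 3, under every control library and within the range of wild-type levels except repopulated 2, which was the lowest of all 10. Its log2 fold change against control was -0.52 (SE 0.17, edgeR adjusted p = 0.141, DESeq2 adjusted p = 0.0224, n = 3 and 3). With the correction for GC content and length it was -0.22. Cd53 has the lowest GC content of the members, 40% in its longest transcript, and Cd37 the highest, 57.3%.

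Cd9 was at 2926, 2826 and 3269 CPM in repopulated 1 to 3, which overlaps the control range only through control 2. The log2 fold change against control was -0.30 (SE 0.17, edgeR adjusted p = 0.358, n = 3 and 3), and the 95% interval of the ratio was 0.631 to 1.04. It was -0.42 without control 2 and -0.03 where control 2 stood alone, and was not called in either.

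Cd81 was at 6048, 5813 and 6448 CPM in the repopulated libraries, with a ratio to control of 1.12 and a 95% interval of 0.843 to 1.5 (edgeR adjusted p = 0.692, n = 3 and 3). Cd37 was at 356, 332 and 331.5 CPM, above all control libraries, with a ratio of 1.19 and an interval of 0.942 to 1.5 (edgeR adjusted p = 0.415, n = 3 and 3). Without control 2 the log2 fold changes were -0.04 for Cd81 and 0.12 for Cd37. Cd151 was at 7.75 to 8.71 CPM, under all control libraries, with a ratio of 0.822 and an interval of 0.568 to 1.19 (edgeR adjusted p = 0.583, n = 3 and 3).

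The third comparison set repopulated 5xFAD against wild-type microglia. Cd9 rose 2.14-fold, and no other member passed the test. Of the 6 members 1 was called, against 4.18% of all tested genes. It rose, as 3.4% of all genes did, and 0 fell by edgeR, DESeq2 or limma-voom, where 0.784% fell by edgeR; at an unadjusted p under 0.05 Cd9 was the only member. On the CPM scale Cd9 was also the only member whose groups did not overlap, where 16% of all genes did not (9.13% higher, 6.82% lower). Every repopulated library lay above every wild-type library for it, with means of 3007 ± 232 and 1403 ± 210 CPM (SD, n = 3 and 4). The log2 fold change was 1.10 (SE 0.16, edgeR adjusted p = 0.000557), and it was called in every alternative, at 1.01 to 1.17. Cd81 had mean levels of 6103 and 6121 CPM, with a ratio of 0.997 and a 95% interval of 0.762 to 1.3. In deposited TPM, however, every repopulated library (7266 to 7418) lay under every wild-type library (7913 to 8823) for Cd81. The intervals of the other ratios were 0.899 to 1.39 for Cd37, 0.716 to 1.16 for Cd53 and 0.675 to 1.35 for Cd151.

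**Figure D3:**
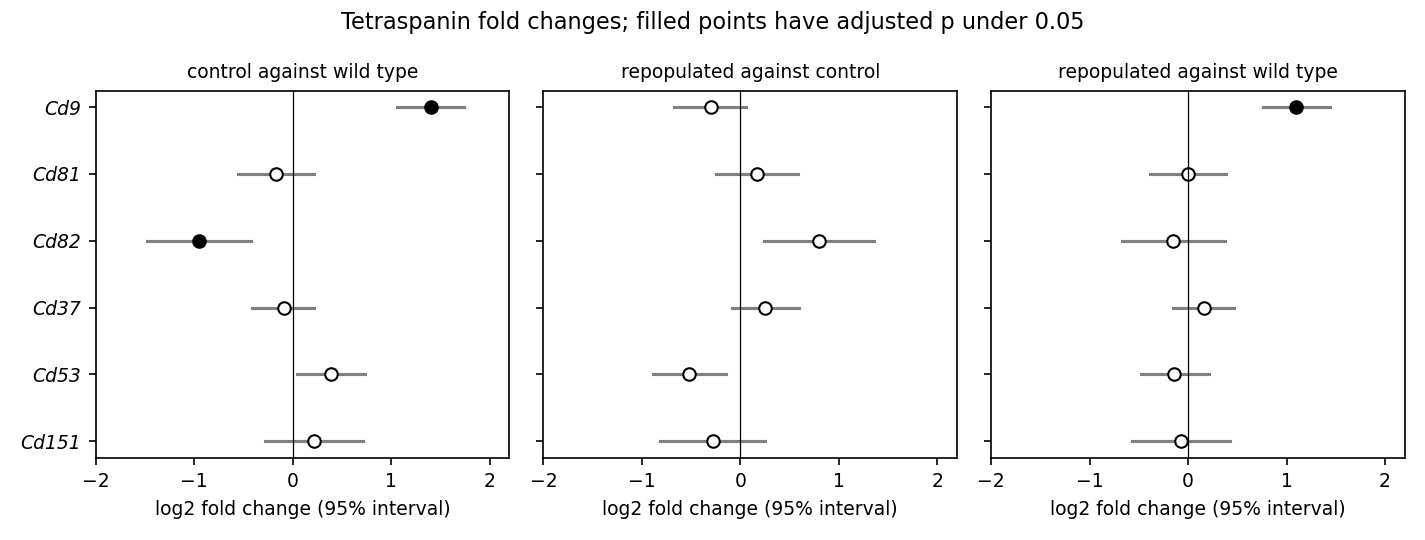
Log2 fold change of each gene in the 3 comparisons (x axes), with the 95% interval as a bar; filled points have an edgeR adjusted p under 0.05. Cd9 is filled in both comparisons against wild type (1.40 and 1.10), Cd82 only in control against wild type (-0.95), and no point is filled in repopulated against control.

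The patterns over the 10 libraries differed among the members. After each gene's mean log2 CPM was taken off, the root mean square difference between a pair of members was smallest for Cd81 and Cd37 (0.22) and for Cd53 and Cd151 (0.27). It was largest for Cd9 and Cd82 (1.07). Among 12504 other tested genes the closest to Cd9 were Lrpap1 (0.10), Npc2 (0.11) and Gng12 (0.13). The closest to Cd82 were Limd2 (0.14), Ap1b1 (0.15) and Trp53rka (0.15), and to Cd53 Tmco1 (0.05), Tm2d1 (0.07) and C1d (0.07). Among the 3 closest to Cd37 were Tubb4b (0.07) and Dcaf11 (0.08). For Cd81 the closest were Ech1 (0.07), Ercc1 (0.08) and Ppie (0.08), and for Cd151 Cct4 (0.10), Vps13b (0.11) and Cul2 (0.11). The libraries share their groups and their scaling, so these likenesses are descriptions.

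Among the rest of the family Cd63 was the only gene that rose. Of 26 other tetraspanin genes listed 18 were tested, and in control against wild-type microglia 1 rose, 3 fell and 14 did not pass, where 10.1% of all tested genes rose and 8.04% fell. Their median log2 fold change was -0.38, and -0.17 with the filter of 5 CPM in 3 libraries, against -0.06 over all tested genes. Cd63, the tetraspanin of lysosomes and vesicles, lay between 361 and 739 CPM in the wild-type group and between 1220 and 1680 CPM in the control group (log2 fold change 1.64, edgeR adjusted p = 0.000119). Upk1b, a uroplakin of the same family, fell from 538 ± 113 to 318 ± 10.7 CPM (log2 fold change -0.76, edgeR adjusted p = 0.00526). It was not called when control 2 stood alone for its group (0.152). Tspan4, known for its place in migrasomes, which are vesicles left on retraction fibres, fell from 192 ± 37.6 to 122.5 ± 21.7 CPM (log2 fold change -0.65, edgeR adjusted p = 0.0133, and 0.0619 without control 2). Tspan18 fell from 20.8 ± 3.47 to 10.9 ± 4.23 CPM (edgeR adjusted p = 0.0183, and 0.0765 under the replicate block). It lost the call without wild-type 4, control 1 or control 3 (edgeR adjusted p = 0.055 to 0.0972), with control 2 standing alone (0.321) and with the GC and length correction (0.0647).

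Among the other abundant relatives, Tspan7, Tspan31 and Tspan13 had log2 fold changes of -0.05, -0.15 and -0.36 and did not pass. With the GC and length correction Tspan13 had -0.57 and was called by edgeR at an adjusted p of 0.00116. In repopulated against control microglia edgeR called 0 of the 18, where it called 0.568% of all tested genes. Of the 18, 2 had an unadjusted p under 0.05. DESeq2 called 1 of them, among 698 genes in all, and limma-voom 0. Their median log2 fold change was 0.22, against 0 over all tested genes. Tspan4 was at 184 to 200 CPM in repopulated libraries, above all control libraries. Its adjusted p was 0.0866 by edgeR and 0.0168 by DESeq2. By edgeR it was 0.0397 without wild-type 3 and 0.0255 in the compared groups alone. Against wild type 1 of the 18 rose in repopulated microglia, again Cd63 (log2 fold change 1.25, edgeR adjusted p = 0.00274), and the median was 0.02. Of all tested genes 3.4% rose and 0.784% fell, with a median of -0.02.

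**Figure D4:**
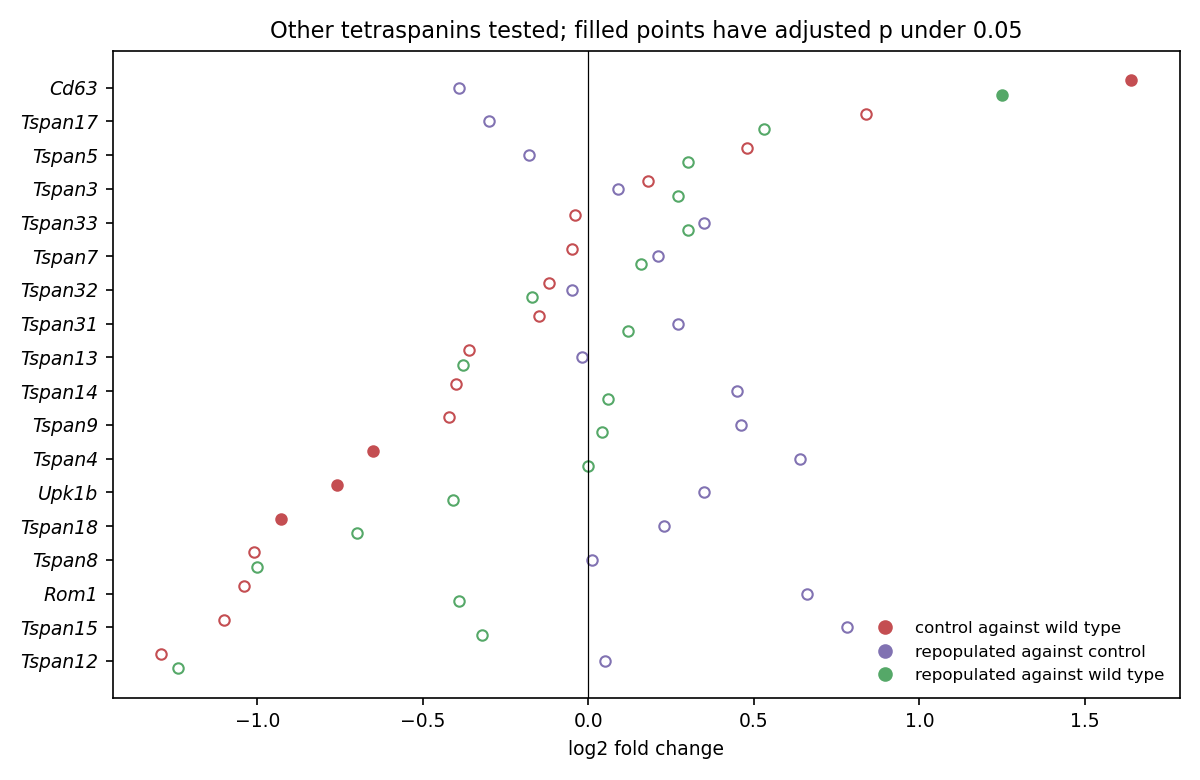
Log2 fold change (x axis) of the 18 other tetraspanin genes tested, in the 3 comparisons by colour; filled points have an edgeR adjusted p under 0.05. Cd63 lies at 1.64 and 1.25 against wild type, and Tspan4, Upk1b and Tspan18 are the filled points on the left.

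Of 28 genes whose proteins are known to assemble with tetraspanins or act with them 25 were tested. In control against wild-type microglia 5 rose, 2 fell and 18 did not pass, where 10.1% of all tested genes rose and 8.04% fell. Their median log2 fold change was 0.04, against -0.06 over all tested genes. Clec7a, the lectin receptor dectin-1 with which Cd37 associates, rose from 39.9 ± 21.9 to 765 ± 24.9 CPM (log2 fold change 4.26, edgeR adjusted p = 6.81e-07). Cd44, the hyaluronan receptor, rose from 3.17 ± 1.29 to 15.2 ± 2.81 CPM (edgeR adjusted p = 9.86e-05). Ptprc, which encodes CD45, rose from 689 ± 73.9 to 1172 ± 74.6 CPM (edgeR adjusted p = 0.00138). CD45 protein was part of the sorting gate. Ptgfrn, a direct immunoglobulin-family partner of Cd9 and Cd81, rose from 14.3 ± 4.78 to 28.8 ± 2.55 CPM (edgeR adjusted p = 0.00564). When control 2 stood alone for its group the value was 0.0696. Prkca, a protein kinase C that tetraspanins bring to integrins, fell from 40.2 ± 6.28 to 17.8 ± 2.3 CPM (edgeR adjusted p = 0.000301). That value was 0.0591 when control 2 stood alone.

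In repopulated against control microglia edgeR called 0 of the 25 partners, where it called 0.568% of all tested genes. Of the partners 7 had an unadjusted p under 0.05. DESeq2 called 2 of them, among 698 genes in all, and limma-voom called 0. Without wild-type 3 edgeR called Clec7a there (log2 fold change -0.67, adjusted p = 0.0293). In the compared groups alone edgeR called Clec7a (log2 fold change -0.67, adjusted p = 0.0257) and Cd44 (-0.88, 0.0336). Against wild type 2 partners rose and 1 fell, where 3.4% of all tested genes rose and 0.784% fell. Clec7a was at 479 ± 77.8 CPM in repopulated libraries (log2 fold change 3.59, edgeR adjusted p = 4.43e-06). Cd44 was at 8.24 ± 0.995 CPM (edgeR adjusted p = 0.0125, 0.07 without repopulated 3 and 0.107 without the libraries near absent in Y-linked transcripts). Ptgfrn passed there only when wild-type 3 was left out (log2 fold change 0.83, edgeR adjusted p = 0.00973). Prkca was at 23.6 ± 2.49 CPM (edgeR adjusted p = 0.0162, and 0.0844 under the replicate block). Its adjusted p was 0.102 without repopulated 1, 0.0975 without repopulated 2 and 0.0826 without the libraries near absent in Y-linked transcripts.

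Extracellular vesicle formation is a process in which Cd9, Cd81 and Cd63 take part. Of 18 of its genes listed 17 were tested, and in control against wild-type microglia 3 rose, 2 fell and 12 did not pass, where 18.1% of all tested genes were called in either direction. Their median log2 fold change was 0.03. Chmp4b, an ESCRT-III subunit, rose from 6.24 ± 0.168 to 12.9 ± 3.6 CPM (edgeR adjusted p = 0.00434). Rab27a, which docks vesicles for release, rose from 167 ± 51.8 to 279 ± 50.4 CPM (edgeR adjusted p = 0.0194). It lost the call without wild-type 4 (0.058), without control 2 (0.097) and with control 2 standing alone (0.0565). Vps28 of ESCRT-I and Hgs of ESCRT-0 passed with an edgeR adjusted p of 0.0352 and 0.0453, with log2 fold changes of 0.50 and -0.67. Vps28 lost the call without wild-type 1 or 4, any 1 control library or repopulated 1 (0.0543 to 0.103). Hgs lost it without wild-type 1, 2 or 4, control 1 or 2, or repopulated 1 or 2 (0.0555 to 0.192). Both also lost it under the replicate block (0.101 for Vps28, 0.153 for Hgs) and with a term for Y-linked transcript status (0.0909 and 0.0581). The same held in the compared groups alone (0.0692 and 0.0726), and for Hgs with the scaling factors of DESeq2 (0.0505). Smpd3, a sphingomyelinase, lay between 0.584 and 1.17 CPM in the wild-type group and between 0 and 0.202 CPM in the control group, too few counts for a fold. Its edgeR adjusted p was 0.0352, and it lost the call without wild-type 1 or 2, control 1 or 3, or any 1 repopulated library (0.0513 to 0.152), with control 2 standing alone (0.466), by limma-voom (0.0582) and with no filter (0.0797). The edgeR adjusted p of Smpd3 was 0.0804 under the replicate block, 0.0614 with a term for Y-linked transcript status and 0.0589 in the compared groups alone. In repopulated against control and against wild type edgeR called 0 of the 17, where it called 0.568% and 4.18% of all tested genes. At an unadjusted p under 0.05 there were 4 and 1 of the 17. DESeq2 called 1 and 0 of them, among 698 and 780 genes in all, and limma-voom called 0 in each. Hgs passed in repopulated against control by DESeq2 (log2 fold change 0.95, adjusted p = 0.00543) and by edgeR without wild-type 3 (0.98, 0.0363) or control 3 (1.20, 0.0414). By edgeR it also passed with no filter (0.97, 0.0365), with the filter of 5 CPM in 3 libraries (0.98, 0.0494) and in the compared groups alone (0.98, 0.0313). With control 2 standing alone its log2 fold change was 1.49.

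The sequence around an annotated start site is shown for the leukocyte members Cd37 and Cd53. Unlike the windows of Cd9, Cd81 and Cd151, theirs hold matches to the core letters bound by PU.1, the myeloid transcription factor. RefSeq promoter windows of 300 bases on GRCm38.p6 matched all 6 members, with 10 windows in all. The letters GAGGAA, on either strand, were found in 28.3% of all 32851 windows, and 4.8% held 2 or more matches. Cd37 and Cd53 each held 2, and of the 4 windows of Cd82 1 held 2. The E-box CACGTG, in 7.2% of all windows, was found once, in Cd37, outside the stretch printed here. Capitals mark GAGGAA or its reverse complement in the 200 bases before and the 20 bases from the start site, on the minus strand, chr7:45238820-45239039 for Cd37 and chr3:106790130-106790349 for Cd53.
Cd37: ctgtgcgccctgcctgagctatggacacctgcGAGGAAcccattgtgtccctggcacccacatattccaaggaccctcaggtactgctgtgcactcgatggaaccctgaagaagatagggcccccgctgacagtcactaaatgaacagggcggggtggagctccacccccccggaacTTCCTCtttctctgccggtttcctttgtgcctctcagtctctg
Cd53: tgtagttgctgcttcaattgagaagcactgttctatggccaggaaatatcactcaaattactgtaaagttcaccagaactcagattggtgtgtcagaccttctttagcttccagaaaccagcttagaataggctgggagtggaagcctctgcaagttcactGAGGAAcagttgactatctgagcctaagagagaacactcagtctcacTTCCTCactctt
The matches begin at -168 and -23 in Cd37 and at -39 and 9 in Cd53, counted from the start site. The match at 9 in Cd53 lies past the start site. The whole Cd37 stretch lies inside the RefSeq span of that gene (45233632 to 45239340), so its matches fall within the annotated gene. A match is a description of letters, and binding was not measured.

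Markers of other cells that could be in the sorted samples were also measured. The 8 oligodendrocyte markers summed to 63.7 to 142 CPM in wild-type, 56.9 to 68.5 in control and 77.7 to 83 in repopulated libraries, and the 8 endothelial markers to 24.5 to 44.5, 40 to 45.5 and 39.9 to 46.8. Of the endothelial markers Cldn5 and Ly6c1 were at 0 in all control and repopulated libraries. The 7 B cell markers measured summed to 68.2 to 101, 60.2 to 91 and 58.8 to 71.1 CPM, with Pax5 at 0 in all control and repopulated libraries. Neutrophil markers summed to 32.8 to 261, 19.3 to 337 and 67.2 to 174 CPM, and all 8 had counts in each group. Their highest library, control 2, was the lowest for Cd81, Cd82 and Cd37. The next highest, wild-type 3 at 261 CPM, had the highest Cd81 of all libraries (6819 CPM). Its Cd82 was at 110 CPM, within the range of the other wild-type libraries, and its Cd37 was the lowest among them (249 CPM). The part of neutrophil transcripts in those levels was not tested. Without wild-type 3, the library richest in neuronal and astrocyte transcripts, the log2 fold change of control against wild type was 1.46 for Cd9 and -0.96 for Cd82, both still called (edgeR adjusted p = 3.32e-05 and 0.0193).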

How the data were processed

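The 10 libraries were made by the Smart-Seq method from total RNA of sorted microglia, per the labels' protocols. HISAT and Bowtie2 are named in the submitters' processing notes, with the build GRCm38.p6; which quantifier, versions and strand setting were used is not given. The deposited estimated counts (expected counts) are not normalised, per the file headers and values, and 20.1% of nonzero values are not whole (tolerance 0.001). The deposited TPM and deposited FPKM are scaled for gene length by the authors, per the file headers. TPM was used for levels between genes. Within a library FPKM is proportional to TPM, so it gives the same pool shares and is no separate check.

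Counts were rounded and fitted with edgeR 4.0.16 (R 4.3.3): filterByExpr, TMM, robust quasi-likelihood, 1 model of 3 groups over 10 libraries, Benjamini-Hochberg over 12505 genes at 0.05, prior count 0.125. CPM are on TMM-scaled totals. The SE was derived from the log2 fold change and its F statistic. The 95% intervals use a t distribution with the total (prior and residual) degrees of freedom of the fit. Alternatives were DESeq2 1.42.0, limma-voom 3.58.1, other scaling factors, filters and prior count, leave-one-out fits, a replicate block, fits of only the groups compared, and Y-linked transcript status (4 genes, threshold 50 CPM); the GC and length correction was chosen after seeing the data. The test was tested on simulated data. Symbols matched RefSeq for 19725 of 19782 genes. Named genes were all members, the 6 most abundant other tetraspanins and up to 4 more called, and up to 5 called genes of each other list by p. Some items are not reported here. Members and lists were chosen with earlier results of these data known. No pair of libraries within a group agreed within sampling noise (chi-square per degree of freedom 16.2 to 103). Same-numbered libraries did not deviate together (r -0.105 to 0.0705), so they were not paired.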

Additional observations from a re-analysis of the deposited data

Results flagged for a closer look

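Clec7a in wild-type 3 lay at 72.6 CPM, far from the 27 to 31.3 CPM of the other wild-type libraries. Among the 6 tetraspanins and the genes named from their lists it was the only wild-type value that stood apart in this way, and chance alone gives such a value in about 1 of 20 groups.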

How the results depend on the processing

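For the 6 tetraspanins in 3 comparisons, 391 alternative values stayed on the same side of the threshold, no called direction turned, and 0 calls were lost. Another 4 values passed where the reported test did not. By DESeq2 they were Cd53 in control against wild type (log2 fold change 0.41), and Cd82 (0.78) and Cd53 (-0.55) in repopulated against control. The fourth was Cd82 in repopulated against control with control 2 as the only control library (1.72). Without single libraries the log2 fold change ran from 1.31 to 1.52 for Cd9 and from -1.24 to -0.64 for Cd82 in control against wild type. No call of a member was lost with the replicate block or with a term for Y-linked transcript status. With that term the log2 fold change of control against wild type was 1.28 for Cd9 and -1.14 for Cd82 (edgeR adjusted p = 0.000265 and 0.0308). In repopulated against control it was -0.11 for Cd9 and 1.05 for Cd82, neither called by edgeR.

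The count of all genes called moved more, and the cause was not tested. For control against wild type it was 2265, with 1464 under the replicate block and 1202 without the libraries near absent in Y-linked transcripts, and 1315 to 2910 without single libraries. For repopulated against control it was 71, with 698 by DESeq2, 125 by limma-voom, 166 with no filter, 125 with the filter of 5 CPM in 3 libraries, 25 under the replicate block, 1 with a term for Y-linked transcript status, 388 without those libraries, 630 in the compared groups alone, and 0 to 328 without single libraries. The 0, by edgeR without repopulated 2, went with 1322 genes at an unadjusted p under 0.05, 121 called by DESeq2 and 7 by limma-voom. For repopulated against wild type it was 523, with 289 without the libraries near absent in Y-linked transcripts and 284 to 688 without single libraries. Of the vesicle formation genes 5 were called in control against wild type, and 2 or 3 under 13 alternatives. Among the 6 members Cd151 had the fewest counts, at 133 to 241 estimated counts a library.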
